A study of Homo sapiens with 42 samples.

Results

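The genes described here gave almost no RNA signal in any of 5 acute myeloid leukaemia (AML) cell lines kept in solvent, and reached a set level in at least 2 of those lines under decitabine. A gene was taken when the mean of its 3 DMSO libraries was under 3 normalised counts in each line (SKM-1, OCI-AML3, KG-1 and the sister lines MOLM-13 and MOLM-14), and the mean of its 3 decitabine libraries was at least 10 in 2 or more of these lines. Names starting with 16 prefixes were left out, among them the MAGE, GAGE, PAGE, XAGE, SSX, HORMAD, KRT and COL families. The rule found 33 of the 60240 genes in the table. Before decitabine, 31673 genes outside those families were equally low, and 31447 of them reached the level in no line, 193 in 1 line, 25 in 2 lines and 8 in 3 lines. No gene reached it in 4 or 5 lines.

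The rule read the decitabine minus DMSO contrast, so the members' own levels and differences are given below as a description with no test. Tests are confined to readings the rule did not use: the response of genes in a line left out when they were chosen, and the response of genes that lie beside the members.

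The study treated AML cell lines with decitabine or its solvent DMSO and measured total RNA by stranded sequencing with 50-base single-end reads after depletion of ribosomal RNA. Cells were seeded at 100000 per mL and labelled wild type. The decitabine groups were dosed at 100 nM 3 times, on day 0, day 1 and day 2, the DMSO groups received solvent, and RNA was taken at 72 h. Each line had 3 DMSO and 3 decitabine libraries, 30 in all. The labels name 42 libraries of 7 lines, and the 12 libraries of OCI-AML2 and THP-1 were not analysed here. MOLM-13 and MOLM-14 came from the same patient. Each line is an established culture, so a difference between lines is a difference between these cultures. Duplicate or triplicate wells are mentioned in the labels, and no label says that the 3 libraries of a group came from separate experiments. The p-values therefore measure a spread between libraries that may be technical.

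Decitabine is a cytidine analogue that dividing cells build into DNA, where it traps DNA methyltransferases, so that newly made DNA loses methyl groups at CpG dinucleotides. Methylation of CpG-rich promoters keeps many genes shut in somatic cells, above all genes of the germ line, and the drug is used in AML and related diseases of the bone marrow. DNA methylation was not measured in these libraries. In bulk RNA, a gene active in a few cells and a gene weakly active in all cells cannot be told apart.

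The lines kept their blood identity. All 10 AML identity genes on the marker list (PTPRC, SPN, CD33, SPI1, MPO, CD34, LYZ, CSF3R, MYB and LMO2) were at 10 or more in some DMSO group, and 9 of them were at that level in all 10 groups. Depth differed widely. The smallest step between values gave an estimate of 1970635 to 75032007 reads in genes per library. Replicate 2 of both treatments was shallow in 3 lines, OCI-AML3, KG-1 and MOLM-14, with 1970635 to 4591479 reads in these 6 libraries against 12594072 to 75032007 in the other 24. A single read was worth 4.30 to 10.3 normalised counts in the shallow libraries and 0.279 to 1.38 in the others, so in the shallowest library 1 read alone reaches the level of 10. Depth also went with the line. The MOLM-13 libraries held 42927868 to 75032007 reads and the SKM-1 libraries 50881363 to 69253473. No library of OCI-AML3, KG-1 or MOLM-14 passed 31225482. Mitochondrial transcripts made up 8.06% to 15.1% of the DMSO libraries and 9.97% to 19.1% of the decitabine libraries. The part of depth and of mitochondrial content in the results below was not tested, except where values without the shallow libraries are given.

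Silent here means low, not absent. Of the members' 495 values in the 15 DMSO libraries, 300 were 0, and the highest was 8.95 normalised counts, for FER1L6-AS2 in the shallow OCI-AML3 library. DDX53 was the 1 member listed at 0 in every DMSO library, and 8 members had some DMSO library above 5. Under decitabine 148 of 495 values were 0. No DMSO library held any member at 10 or more. Under decitabine, 24 to 25 members were at 10 or more in each SKM-1 library, 13 to 15 in OCI-AML3, 11 to 13 in KG-1, 7 to 9 in MOLM-14 and 4 to 5 in MOLM-13. The bar charts show these counts and the depth by library. The counts differed little within a line, but the members were chosen on means that include the shallow libraries, so nothing is read from this about depth. Members at 0 differed more. They numbered 24 in the shallow MOLM-14 decitabine library against 14 and 11 in its partners, 14 against 4 and 7 in OCI-AML3, and 12 against 9 and 9 in KG-1.

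**Figure D1:**
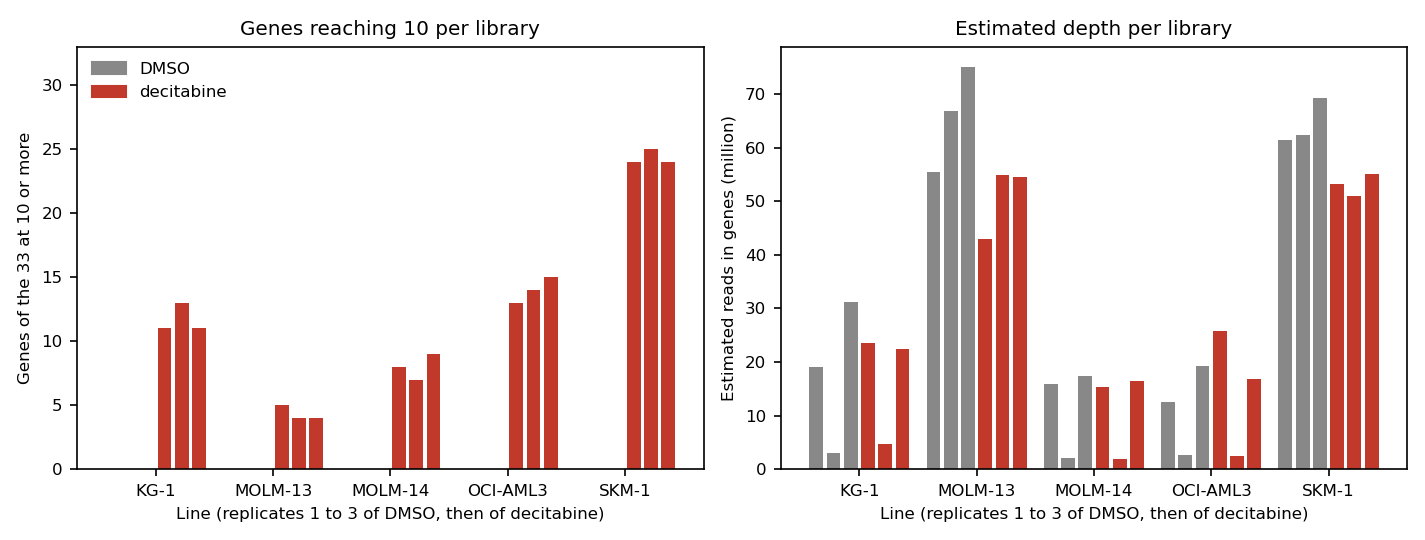
Bars on the left give, for each of the 30 libraries, how many of the 33 genes were at 10 or more normalised counts, and bars on the right give the estimated reads in genes. Within each line the 3 DMSO libraries (grey) come before the 3 decitabine libraries (red); the DMSO libraries stand at 0 on the left and the SKM-1 decitabine libraries at 24 to 25.

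SKM-1 held the most members. Genes of the 33 reached a mean of 10 in 26 cases in SKM-1, 19 in OCI-AML3, 13 in KG-1, 11 in MOLM-14 and 5 in MOLM-13, and SKM-1 held the highest mean for 21 of the 33. The members were shared most often by OCI-AML3 and SKM-1, with 14 in common, and by KG-1 and SKM-1, with 10. The sister lines MOLM-13 and MOLM-14 shared 2, TKTL1 and LRRC3B, and KG-1 and MOLM-13 shared 0. Lines that reached 10 for more members also share more of them, so nothing is read from these overlaps about which lines go together. The replicates also agreed best in SKM-1, where the median coefficient of variation over the members that reached 10 was 13.2%, against 22.7% in KG-1, 44.8% in MOLM-13, 78.2% in OCI-AML3 and 110% in MOLM-14. Depth went with the line, as given above, and its part in these counts and spreads was not tested.

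**Figure D2:**
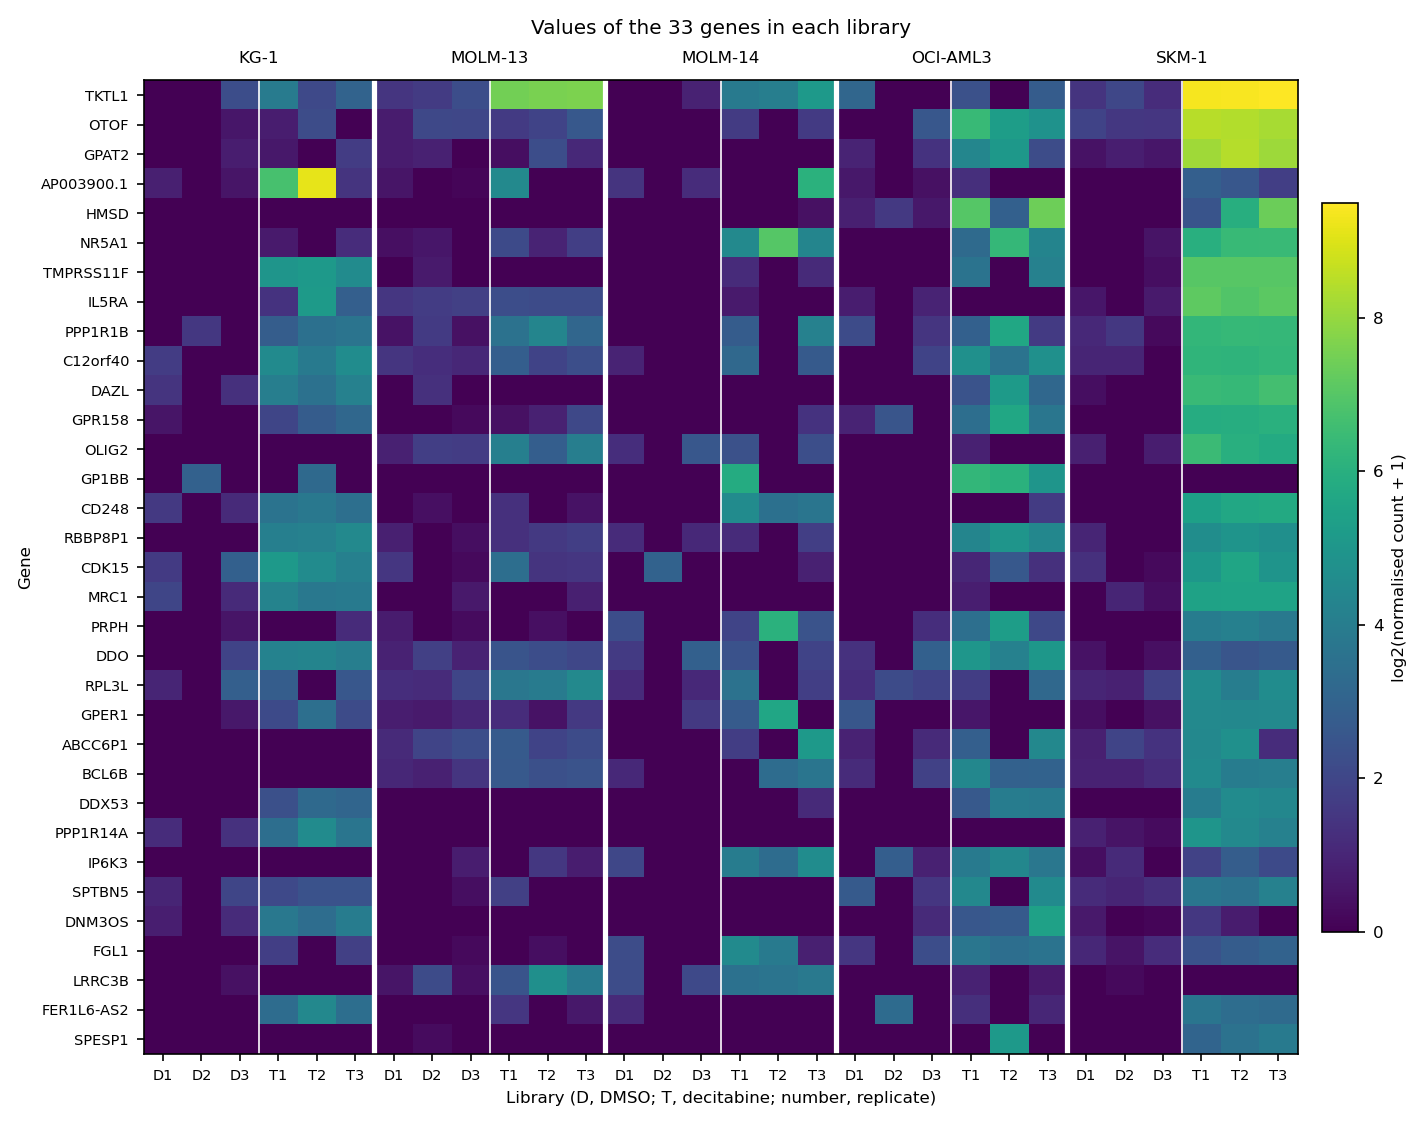
Rows are the 33 genes, ordered by their mean over the 5 lines under decitabine, and columns are the 30 libraries, with DMSO (D) and decitabine (T) replicates 1 to 3 in each line. The colour is log2(normalised count + 1); the DMSO columns stay dark, the SKM-1 decitabine columns are bright for most genes, and several MOLM-14 and OCI-AML3 values stand in a single library.

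Not every reached level was shared by the replicates. Over the 165 combinations of a member and a line, 74 reached a mean of 10. All 3 decitabine libraries were at 10 or more in 42 of these, 2 libraries in 19 and only 1 library in 13. All 3 decitabine libraries lay above all 3 DMSO libraries for 29 members in SKM-1, 18 in KG-1, 17 in OCI-AML3, 12 in MOLM-13 and 5 in MOLM-14. Over all genes tested this held for 29.2% in SKM-1, 10.2% in KG-1, 10.1% in OCI-AML3, 22.8% in MOLM-13 and 11.2% in MOLM-14; since the members were chosen on this contrast, nothing is read from these counts. Without the shallow libraries, 65 of the 74 means were still at 10 or more.

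The promoters of the members ranged from CpG-rich to almost CpG-free. RefSeq windows from 250 bases before to 50 after a gene's start (GRCh38.p14) were found for 22 of the 33, and where a gene had several windows the one with the most CpG was taken, for members and all other genes alike. A RefSeq start can lie far from the GENCODE start of the gene, by 112304 bases for SPESP1, 64883 for DAZL, 16239 for IL5RA and 16076 for CDK15. The CpG ratio compares the CpG dinucleotides counted with the number that the C and G content would give by chance. Among the 21 protein-coding members with a window the median ratio was 0.60, and 11 of them, 52.4%, were at 0.6 or more. Among 2649 protein-coding genes that were equally silent under DMSO and were not members, the median was 0.30 and 27.1% were at 0.6 or more. Over 15409 protein-coding genes of the table, silent or not, the median was 0.80 and the share 71.0%. The members thus lay between the other silent genes and coding genes in general, which is a description of 21 windows and was not tested.

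**Figure D3:**
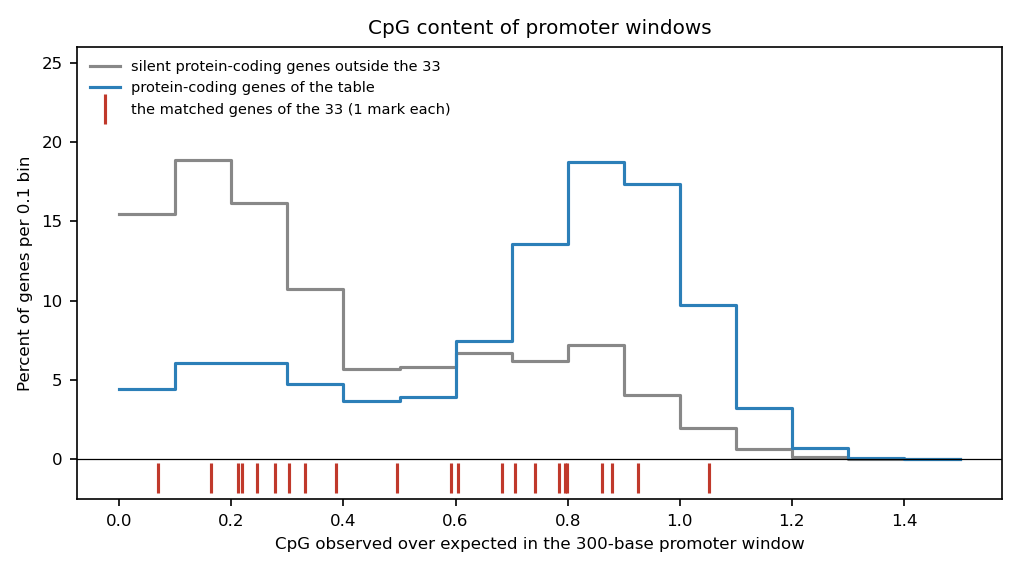
The horizontal axis is the CpG ratio in the 300-base promoter window, and the lines give the percent of protein-coding genes per 0.1 bin, for silent genes outside the 33 (grey) and for all protein-coding genes of the table (blue). The red marks below 0 on the vertical axis are the 22 matched genes of the 33, which spread from 0.0687 to 1.05 with 11 at 0.6 or more.

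Windows of 7 members are printed because they span this range and belong to genes whose levels are described next. Each reads 5′ to 3′ on the gene's strand, with every CpG in capitals. The first 5 belong to genes that also rose in 3 lines when each was left out of the choice, as described further on, and the last 2 are CpG-poor windows; TMPRSS11F, the first of these, also rose in OCI-AML3 when that line was left out. The positions are chrX:154295545-154295844 (+) for TKTL1, chr3:16605374-16605673 (-) for DAZL, chr9:124507350-124507649 (-) for NR5A1, chr12:39625933-39626232 (+) for C12orf40, which RefSeq lists as REDIC1, chr12:49294897-49295196 (+) for PRPH, chr4:68129820-68130119 (-) for TMPRSS11F and chr3:3110325-3110624 (-) for IL5RA.
TKTL1: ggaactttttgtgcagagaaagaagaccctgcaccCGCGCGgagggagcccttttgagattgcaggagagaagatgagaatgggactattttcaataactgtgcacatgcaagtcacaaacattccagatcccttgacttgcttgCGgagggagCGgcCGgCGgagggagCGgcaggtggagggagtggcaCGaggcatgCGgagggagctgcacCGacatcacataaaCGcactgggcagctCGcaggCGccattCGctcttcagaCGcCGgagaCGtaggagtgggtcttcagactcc
DAZL: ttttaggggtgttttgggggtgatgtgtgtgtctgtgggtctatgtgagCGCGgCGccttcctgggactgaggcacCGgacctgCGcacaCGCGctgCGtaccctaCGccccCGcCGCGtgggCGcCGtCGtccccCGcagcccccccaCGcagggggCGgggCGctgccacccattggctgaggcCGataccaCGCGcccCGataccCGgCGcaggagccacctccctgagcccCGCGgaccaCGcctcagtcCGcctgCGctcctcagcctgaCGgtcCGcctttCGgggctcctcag
NR5A1: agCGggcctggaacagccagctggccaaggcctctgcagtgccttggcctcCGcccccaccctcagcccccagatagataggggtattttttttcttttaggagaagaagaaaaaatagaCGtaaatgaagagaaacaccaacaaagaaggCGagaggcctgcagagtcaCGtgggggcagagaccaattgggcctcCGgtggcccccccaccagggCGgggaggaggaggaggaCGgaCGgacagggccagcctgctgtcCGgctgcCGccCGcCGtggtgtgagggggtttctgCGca
C12orf40: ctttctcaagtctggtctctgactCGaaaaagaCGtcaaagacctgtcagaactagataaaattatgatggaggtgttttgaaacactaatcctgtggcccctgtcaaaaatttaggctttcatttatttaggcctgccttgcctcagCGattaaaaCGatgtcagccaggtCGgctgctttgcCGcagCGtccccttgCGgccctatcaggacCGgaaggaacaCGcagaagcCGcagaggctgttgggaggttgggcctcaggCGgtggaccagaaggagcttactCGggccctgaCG
PRPH: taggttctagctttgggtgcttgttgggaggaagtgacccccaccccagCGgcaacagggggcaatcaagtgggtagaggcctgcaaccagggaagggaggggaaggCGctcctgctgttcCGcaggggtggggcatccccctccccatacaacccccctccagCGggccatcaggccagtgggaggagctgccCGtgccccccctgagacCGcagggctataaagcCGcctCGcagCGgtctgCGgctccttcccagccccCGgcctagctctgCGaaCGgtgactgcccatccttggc
TMPRSS11F: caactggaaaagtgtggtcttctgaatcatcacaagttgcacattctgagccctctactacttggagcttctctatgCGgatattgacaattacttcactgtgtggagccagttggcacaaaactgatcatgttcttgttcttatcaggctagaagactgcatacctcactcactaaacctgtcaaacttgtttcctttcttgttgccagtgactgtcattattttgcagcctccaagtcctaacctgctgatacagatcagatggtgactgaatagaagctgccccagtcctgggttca
IL5RA: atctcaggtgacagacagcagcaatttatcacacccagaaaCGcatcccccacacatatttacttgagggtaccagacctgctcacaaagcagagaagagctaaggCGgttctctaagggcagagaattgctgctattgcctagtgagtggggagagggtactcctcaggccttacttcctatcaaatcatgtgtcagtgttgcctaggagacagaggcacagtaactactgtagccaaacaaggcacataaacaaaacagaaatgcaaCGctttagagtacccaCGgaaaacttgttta
The DAZL window holds 33 CpG, TKTL1 18, NR5A1 14, C12orf40 14, PRPH 13, IL5RA 4 and TMPRSS11F 1. The median was 16 over all genes with a window and 25 over protein-coding genes. By the CpG ratio DAZL (0.86), TKTL1 (0.74) and C12orf40 (0.68) were above 0.6. NR5A1 (0.50), PRPH (0.39), IL5RA (0.25) and TMPRSS11F (0.07) were below it. TMPRSS11F reached a mean of 130.5 normalised counts in SKM-1, so a CpG-rich window was not shared by all members. The letters GGGCGG or CCGCCC on the other strand, the GC box, were present in 11 of the 22 windows (50.0%) against 47.0% of 27305 genes with a window. TATAAA or TTTATA, the TATA box, was in 2, CDK15 and PRPH (9.09% against 11.5% of all). CACGTG, an E-box that reads the same on both strands, was in 1, NR5A1 (4.55% against 7.54%), and TGACGTCA, a cyclic AMP response element that also reads the same on both strands, was in 0 (against 1.98%). A match is only a run of letters in the window.

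Of the 33, 28 are protein-coding, 84.8%, against 11.7% of all equally silent genes. The others are the long noncoding RNAs AP003900.1, DNM3OS and FER1L6-AS2 and the pseudogenes RBBP8P1 and ABCC6P1. Chromosome X carries 3 members, TKTL1, RBBP8P1 and DDX53 (9.09% against 4.51% of silent genes), and chromosome Y carries 0. The genes are otherwise scattered, with at most 3 on any chromosome. Levels of different genes are compared only per kilobase of exon. On that scale, averaged over the 5 lines under decitabine, AP003900.1 stood at 55.6 and TKTL1 at 49.8 normalised counts per kb, followed by TMPRSS11F at 16.3 and HMSD at 12.2, and SPTBN5 was lowest at 0.526. The level of AP003900.1 rests on KG-1 replicate 2, a shallow library at 563: without the shallow libraries AP003900.1 stood at 21.5 and TKTL1 at 50.1 per kb.

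The members are described below in the order of their textbook roles, an order made with their names seen and not tested. TKTL1, a transketolase-like gene expressed in testis (ENSG00000007350.17, chrX:154295671-154330350), was at 660.1, 678 and 725 normalised counts in the 3 SKM-1 decitabine libraries, where the DMSO libraries were at 1.73, 3.06 and 1.31. In MOLM-13 it was at 178, 192 and 195 (DMSO 1.79, 2.15 and 3.75), and in MOLM-14 at 13.7, 15.9 and 33.3 (DMSO 0, 0 and 0.872). The decitabine and DMSO libraries do not overlap in any of these lines, and the sister lines MOLM-13 and MOLM-14 differ widely in level. In KG-1 the decitabine libraries were at 14.4, 3.32 and 7.24 and overlap the DMSO libraries at 0, 0 and 3.78, and in OCI-AML3 the mean was 3.29 ± 2.97 (SD, n = 3) against 2.60 ± 4.51. TKTL1 was under the limit in OCI-AML3 because 2 of the 3 DMSO libraries, the shallow one included, were at 0, and the other was at 7.80; without either of the libraries at 0 it would not be a member.

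DAZL, an RNA-binding protein that germ cells need to develop (ENSG00000092345.14, chr3:16586792-16670306), was at 85.2, 81.1 and 99.2 in SKM-1 decitabine libraries against 0.266, 0 and 0 under DMSO. In KG-1 it was at 15.5, 10.7 and 16.9997 against 1.67, 0 and 1.48. In OCI-AML3 it was at 4.40, 35.3 and 8.01 against 0 in all 3 DMSO libraries, and the highest value came from the shallow library. DAZL was listed at 0 in every decitabine library of MOLM-13 and MOLM-14, so its response was split by line. C12orf40, a gene that acts in meiotic crossing over (ENSG00000180116.15, chr12:39626167-39908300), was at 73.3, 71.7 and 77.7 in SKM-1, at 22.6, 13.7 and 23.7 in KG-1 and at 26.1, 11.1 and 26.5 in OCI-AML3. Its DMSO libraries did not pass 2.81 anywhere. It overlaps SLC2A13 on the opposite strand, and how strand was treated in counting is not given in the sources used here, so its values are uncertain to that extent.

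GPAT2, a mitochondrial acyltransferase found mainly in testis, was at 283, 349.5 and 276 in SKM-1 against 0.371, 0.757 and 0.494 under DMSO, and at 19.4, 32.8 and 3.67 in OCI-AML3. It stayed at or below 3.78 in the other lines. DDX53, an RNA helicase of the cancer/testis group, was at 15.01, 22.8 and 20.2 in SKM-1 and at 5.29, 14.8 and 13.9 in OCI-AML3, from 0 in every DMSO library. In KG-1 it was at 4.06, 8.59 and 7.66, above DMSO but under the level of 10. SPESP1, a sperm acrosome protein, was at 7.32, 10.9 and 13.6 in SKM-1, while its OCI-AML3 mean rests on replicate 2 alone, at 33.4 in the shallow library with 0 in the other 2. SPESP1 overlaps NOX5 on the same strand and ANP32A on the opposite strand, so its values are uncertain.

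A list of 230 protein-coding genes of germline and testis, chosen with earlier results of these data known, had 148 genes silent under DMSO in all 5 lines. DAZL, DDX53 and TKTL1 were members, 14 further genes reached 10 in 1 line, 13 of them in SKM-1, and 131 reached it in no line. So 11.5% of the silent genes on the list reached 10 somewhere, beside 4.17% of all 3719 silent protein-coding genes. Spermatid genes on the marker list stayed off: TNP1, PRM1 and PRM2 were listed at 0 in all 30 libraries. DAZL itself is on that marker list of 8 genes, of which 1, AMH, was at 10 or more in some DMSO group and 4 in some decitabine group. In SKM-1 the means under DMSO and decitabine were 0.534 and 12.7 for DDX4 and 2.10 and 12.4 for SOX9. AMH was lower there under decitabine, with 114 and 71.5. The summed level of the list was 0 to 137 in single DMSO libraries, where AMH alone reached 134, and 10.2 to 203 in single decitabine libraries.

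OTOF, the calcium sensor otoferlin of inner-ear hair cells, was at 354, 339 and 304 in SKM-1 against 2.72, 1.94 and 1.85 under DMSO. In OCI-AML3 it was at 84.5, 38.0 and 27.4 against 0, 0 and 4.91, again with no overlap. PPP1R1B, the dopamine-signalling protein DARPP-32, was at 76.5, 82.1 and 78.6 in SKM-1 and at 11.0, 19.0 and 7.88 in MOLM-13, while its OCI-AML3 mean of 19.4 ± 26.3 (SD, n = 3) rests on 49.6 in the shallow library. GPR158, an orphan receptor of the brain, was at 57.3, 59.9 and 64.3 in SKM-1 and at 9.84, 50.1 and 12.4 in OCI-AML3.

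OLIG2, a transcription factor of oligodendrocyte and motor neuron precursors, was at 88.0, 63.4 and 54.4 in SKM-1 and at 16.1, 6.13 and 15.9 in MOLM-13, and was listed at 0 in all KG-1 libraries. PRPH, the neuronal intermediate filament peripherin (ENSG00000135406.14, chr12:49293252-49298686), was even in SKM-1, at 15.01, 16.7 and 13.2 against 0 in each DMSO library. In OCI-AML3 it was at 10.1, 37.9 and 3.19, and in MOLM-14 at 2.84, 66.3 and 4.45, where replicate 1 lies below the DMSO value of 3.75. The high values of both lines are those of the shallow libraries. Of the 7 neuron markers on the list, STMN2 did not pass 0.347 and SYT1 did not pass 4.71 in any library, while the other 5 were at 10 or more in some DMSO group already. Their summed level was 35.8 to 239 in single DMSO libraries and 47.2 to 187 in single decitabine libraries. SYP had means of 22.4 under DMSO and 54.7 under decitabine in SKM-1. TUBB3 had 32.9 and 67.3 in OCI-AML3, and GAD1 34.7 and 75.9 in MOLM-14. Other means were lower under decitabine. SNAP25 had means of 84.7 under DMSO and 37.3 under decitabine in MOLM-14, and RBFOX3 26.3 and 14.4 there. SYP had 28.4 and 4.94 in KG-1 and 24.2 and 5.69 in MOLM-14, and GAD1 60.3 and 43.5 in KG-1. The part of such markers in the members' levels was not tested.

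NR5A1, steroidogenic factor 1, is the nuclear receptor that sets up adrenal and gonadal cells (ENSG00000136931.10, chr9:124481236-124507430). It was at 63.1, 84.0 and 85.2 in SKM-1 against 0, 0 and 0.433 under DMSO. In MOLM-14 it was at 21.1, 126 and 19.2 and in OCI-AML3 at 8.67, 80.4 and 18.6, with every DMSO library of both lines at 0. The groups do not overlap in these 3 lines, and in MOLM-14 and OCI-AML3 the shallow library was the highest. In MOLM-13 the mean was 2.23 ± 1.23 (SD, n = 3), far from the sister line MOLM-14 at 55.5 ± 61.1. NR5A1 was the 1 member on a list of 243 developmental transcription factors. Of these, 88 were silent under DMSO, 4 more reached 10 in 1 line and 83 in none. So 5.68% of the silent genes on the list reached 10 somewhere, beside 4.17% of all silent protein-coding genes. GPER1, a membrane estrogen receptor, was at 21.2, 20.8 and 21.0 in SKM-1, while its MOLM-14 mean rests on 47.9 in the shallow library beside 5.59 and 0. GPER1 lies in C7orf50 on the opposite strand, a gene that fell by 0.48 over the 5 lines (limma estimate on the log2 scale, adjusted p = 9.81e-05).

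IL5RA, the interleukin-5 receptor chain of eosinophils, was at 139, 121 and 138 in SKM-1 against 0.474, 0 and 0.606 under DMSO. Its KG-1 mean of 14.5 ± 18.4 (SD, n = 3) rests on 35.6 in the shallow library beside 1.60 and 6.40. MRC1, the macrophage mannose receptor CD206, was even in its 2 lines, at 43.1, 44.9 and 44.8 in SKM-1 and 17.9, 12.9 and 13.6 in KG-1, with all DMSO libraries of these lines at or below 3.01. CD248, the stromal and pericyte protein endosialin (ENSG00000174807.4, chr11:66314487-66317044), was at 41.3, 50.3 and 53.5 in SKM-1, at 11.4, 12.9 and 10.2 in KG-1 and at 22.9, 10.3 and 11.96 in MOLM-14. Every decitabine library of these lines was above 10, and no DMSO library was above 2.00. MOLM-13 and OCI-AML3 stayed at or below 2.14. The CD248 value of 10.3 in MOLM-14 comes from the shallow library, where 1 read is worth 10.3 normalised counts. In KG-1 the values of 12.9 for CD248 and for MRC1 come from the shallow library, where 1 read is worth 4.30. Markers of fibroblasts and endothelium also differed in KG-1, where COL3A1 had means of 0.318 under DMSO and 32.6 under decitabine, LUM 1.44 and 16.4 and KDR 13.4 and 38.5. COL1A2 had means of 59.9 and 243 in OCI-AML3. In MOLM-14, COL1A2 was lower under decitabine, with means of 24.6 and 2.75, and so was COL1A1, with 18.6 and 7.25. The summed level of the 6 fibroblast markers was 4.96 to 144 in single DMSO libraries and 14.7 to 344 in single decitabine libraries. For the 5 endothelial markers it was 365 to 4281 and 1068 to 5506. DCN and CDH5 were under 10 in every group, and the part of these markers in the members' levels was not tested.

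GP1BB, a platelet glycoprotein, was at 76.4, 66.8 and 29.9 in OCI-AML3 from 0 in each DMSO library, and was listed at 0 in all SKM-1 libraries. Its MOLM-14 mean rests on replicate 1, at 57.2 beside 0 and 0. GP1BB lies inside SEPT5 and a SEPT5-GP1BB readthrough gene on the same strand, so reads may be split among them. BCL6B, a transcriptional repressor related to BCL6, was at 22.3, 14.8 and 15.7 in SKM-1 and at 20.1, 6.78 and 6.84 in OCI-AML3.

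Among metabolic enzymes and kinases the leading line was not always SKM-1. DDO, D-aspartate oxidase, was at 30.7, 17.04 and 32.1 in OCI-AML3 and 17.7, 18.5 and 15.9 in KG-1, but at 6.47, 4.67 and 5.43 in SKM-1. IP6K3, an inositol hexakisphosphate kinase of muscle and brain, was at 14.8, 9.22 and 23.9 in MOLM-14 and 14.1, 19.97 and 12.5 in OCI-AML3, and at 4.01 ± 1.68 (SD, n = 3) in SKM-1. CDK15, a kinase of the cyclin-dependent family, was at 33.5, 22.7 and 16.6 in KG-1 and 31.3, 47.0 and 29.3 in SKM-1, with a KG-1 DMSO mean of 2.90 that lies just under the limit. FGL1, a protein secreted by liver cells, was at 22.6, 13.6 and 0.792 in MOLM-14 and 12.2, 9.83 and 11.3 in OCI-AML3. Of 6 hepatocyte markers, AFP was at 0 throughout, and ALB, APOA1, APOB, TTR and AFP were under 10 in every group. The sixth, SERPINA1, had means of 103 under DMSO and 269 under decitabine in OCI-AML3, and of 770.1 and 2223 in SKM-1. The summed level of the list was 0 to 825 in single DMSO libraries and 0 to 2287 in single decitabine libraries, and its part in the level of FGL1 was not tested.

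RPL3L, the muscle form of ribosomal protein L3, was at 22.9, 15.4 and 23.5 in SKM-1 and 12.6, 14.6 and 21.1 in MOLM-13, against DMSO values up to 3.00 in these lines. PPP1R14A, an inhibitor of myosin phosphatase in smooth muscle, was at 29.95, 20.98 and 16.9 in SKM-1 and 9.70, 23.3 and 11.9 in KG-1, and was listed at 0 in every library of MOLM-13, MOLM-14 and OCI-AML3. SPTBN5, a large beta-spectrin, was at 12.4, 10.8 and 17.02 in SKM-1 and at 20.4, 0 and 22.4 in OCI-AML3. Of the 7 muscle markers, MYH2 was at 0 throughout and ACTA1, MYH1, MYH2 and MYOG were under 10 in every group. The other 3 differed between treatments in some lines: DES had means of 24.0 under DMSO and 152 under decitabine in SKM-1, CKM 13.1 and 58.7 in SKM-1, and TTN 144 and 402 in MOLM-13. TTN was lower under decitabine in SKM-1, with means of 111 and 60.8, and DES was lower in OCI-AML3, with 3.34 and 0.228. The summed level of the list was 17.1 to 712 in single DMSO libraries and 36.0 to 1208 in single decitabine libraries, and its part in the members' levels was not tested.

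The remaining coding members were an antigen precursor, a protease and a leucine-rich repeat protein. HMSD, a serpin-related gene that gives rise to a minor histocompatibility antigen, was uneven, at 126, 6.44 and 171 in OCI-AML3 and 4.59, 61.4 and 166 in SKM-1, and was listed at 0 in KG-1 and MOLM-13. It shares a strand with SERPINB8, so the values of HMSD are uncertain. TMPRSS11F, a membrane serine protease of epithelia, was even between replicates, at 129.8, 130.0 and 132 in SKM-1 and 30.03, 34.4 and 22.98 in KG-1, against DMSO values at or below 0.283 in these lines. It overlaps UBA6-AS1 on the opposite strand, with means of 290 under DMSO and 322 under decitabine, so the uncertainty given for C12orf40 applies. The same holds for GPAT2 with FAHD2CP, PPP1R14A with SPINT2, SPTBN5 with JMJD7-PLA2G4B and DNM3OS with DNM3. LRRC3B, a membrane protein with leucine-rich repeats, was the 1 member that reached 10 in the sister lines alone, at 4.54, 25.4 and 13.6 in MOLM-13 and 10.6, 11.6 and 13.3 in MOLM-14, and it was listed at 0 in every SKM-1 decitabine library.

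Of the noncoding members, RBBP8P1, a processed pseudogene of RBBP8 (ENSG00000230399.1, chrX:118632375-118634218), was even between replicates. It was at 16.2, 17.2 and 21.3 in KG-1, 18.9, 29.7 and 20.3 in OCI-AML3 and 24.4, 29.4 and 25.7 in SKM-1, with no DMSO library above 1.26. RBBP8P1 lies inside DOCK11 on the opposite strand and resembles its parent gene, so reads could be assigned to any of them. AP003900.1, a long noncoding RNA, was uneven, at 106, 563 and 1.67 in KG-1, and at 66.8 in MOLM-14 replicate 3 with 0 in the other 2. DNM3OS, the host transcript of miR-199a and miR-214, was at 13.01, 9.44 and 15.0004 in KG-1 and 4.99, 5.42 and 41.9 in OCI-AML3. ABCC6P1, a pseudogene of the transporter ABCC6, was at 20.9, 25.9 and 1.31 in SKM-1 and rests on 33.4 in 1 library of MOLM-14. FER1L6-AS2, an antisense RNA, was at 9.30, 20.5 and 9.75 in KG-1 and 11.8, 9.60 and 8.74 in SKM-1, and did not pass the filter on low values that the other 32 passed.

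Some members stood at the edge of the rule. The second-highest decitabine mean was 10.1 for FER1L6-AS2 and 10.6 for SPESP1, just inside, and 9.89 for AC009163.5 and 9.87 for MAP7D2, just outside. The highest DMSO mean was 2.98 for FER1L6-AS2 and 2.90 for CDK15, just inside, and 3.07 for AMY1A and 3.26 for NUTM1, just outside. Leaving out 1 library at a time gave 30 to 36 members, and 13 of the 33 stayed in every time, while 20 dropped out for at least 1 library.

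Whether such genes respond in a line that had no say in choosing them was read by applying the rule to 4 lines and testing the fifth. The test was limma on log2(normalised count + 1) over 22168 genes with Benjamini-Hochberg adjustment, with calls at an adjusted p under 0.05. In SKM-1, 17 genes were chosen by the other lines and 10 were called higher, of which SHROOM2 was no member and 9 were: TKTL1, DAZL, NR5A1, CD248, C12orf40, PPP1R1B, RBBP8P1, PRPH and DDO. Over all genes tested 5.7% were called higher in SKM-1, and 13.4% of those with a DMSO mean under 3 there. The median difference of the 17 genes was 2.41, beside 0.08 over all genes and 0.34 over the genes low in that line. A gene near 0 under DMSO can only stay or rise, so for members the second background is the nearer one. The rule on 4 lines did not read the DMSO level of the fifth. The chosen genes that were not members had a DMSO mean of 3 or more in the line left out. They numbered 2 in SKM-1, where SHROOM2 was at 4.48, 7 in KG-1, 6 in OCI-AML3, 4 in MOLM-14 and 4 in MOLM-13. For such genes the low-gene background is not the matching one.

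TKTL1 rose most in SKM-1, by 7.87 ± 0.77 (limma estimate and SE on the log2 scale, adjusted p = 5.62e-08). DAZL rose by 6.37 ± 0.52 (limma adjusted p = 2.43e-09) and NR5A1 by 6.11 ± 0.63 (limma adjusted p = 1.37e-07). The pseudocount of 1 limits such differences where the DMSO libraries are at or near 0.

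The other lines gave fewer calls. In KG-1, 7 of 31 genes were called higher: RBBP8P1, C12orf40, DAZL, DDX53, CD248, GPR158 and the non-member PROSER2-AS1, which was not silent in KG-1 (DMSO mean 12.4), with 3.12% called among all genes and 5% among those low in KG-1. RBBP8P1 rose by 4.26 ± 0.43 (limma adjusted p = 4.11e-07), C12orf40 by 3.79 ± 0.68 (limma adjusted p = 0.000911) and DAZL by 3.01 ± 0.52 (limma adjusted p = 0.000599). In OCI-AML3, 6 of 25 tested genes were called higher: NR5A1, RBBP8P1, C12orf40, DAZL, PRPH and TMPRSS11F, with 3.74% among all genes and 6.49% among low genes. NR5A1 rose by 4.64 ± 0.63 (limma adjusted p = 3.24e-05), RBBP8P1 by 4.56 ± 0.43 (limma adjusted p = 1.7e-07) and C12orf40 by 3.74 ± 0.68 (limma adjusted p = 0.000998).

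In MOLM-14, 5 of 29 tested genes were called higher: NR5A1, TKTL1, CD248, PRPH and the non-member AL160408.3, which was not silent in MOLM-14 (DMSO mean 5.32). The background there was 6.26% among all genes and 7.36% among low genes. NR5A1 rose by 5.27 ± 0.63 (limma adjusted p = 2.94e-06), TKTL1 by 4.05 ± 0.77 (limma adjusted p = 0.000972) and CD248 by 3.92 ± 0.46 (limma adjusted p = 2.45e-06). In MOLM-13, 1 of 33 tested genes was called, TKTL1, which rose by 5.77 ± 0.77 (limma adjusted p = 6.19e-05), with 1.45% among all genes and 0.484% among low genes. Its share of 3.03% is near the background over all genes. The median differences were 0.63 in KG-1, 0.66 in OCI-AML3, 0.38 in MOLM-14 and 0.49 in MOLM-13, against 0.31, 0.41, 0.32 and 0.16 over the genes low in each line. So in these 4 lines the typical chosen gene was little above a typical low gene and the calls came from a few. The chosen genes include the non-members, which were not low in the line left out.

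**Figure D4:**
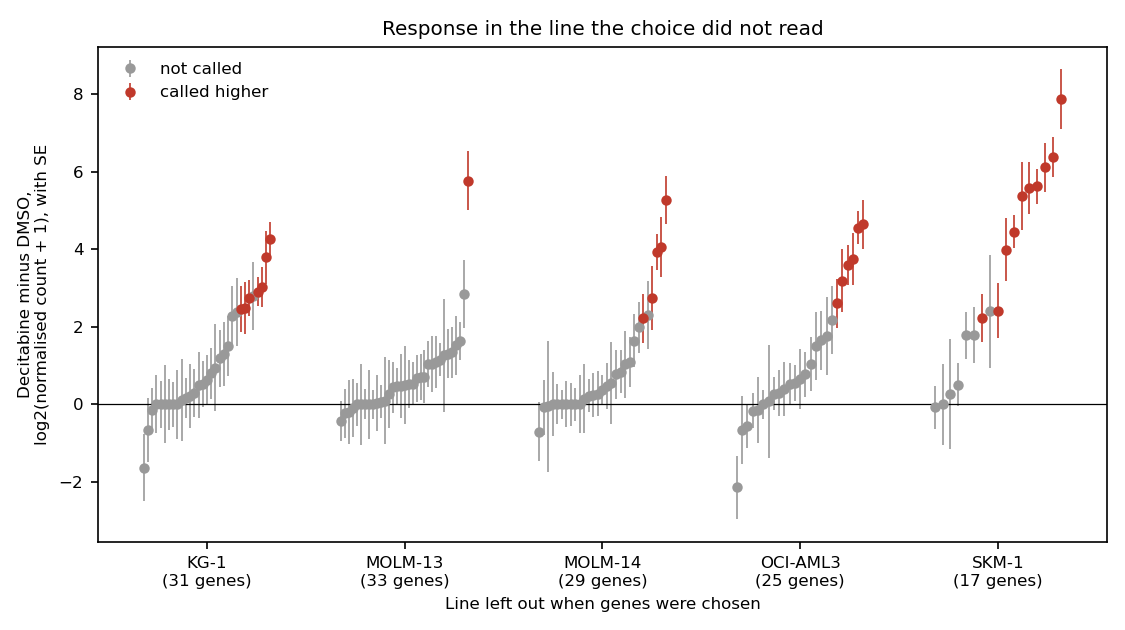
Each point is a gene chosen by the rule in the other 4 lines, placed above the line left out, with the limma difference of decitabine minus DMSO on the log2(normalised count + 1) scale and its SE. Red points were called higher; SKM-1 has 10 red points of 17 and MOLM-13 has 1 of 33.

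Over the 5 lines, 29 of 135 gene and line pairs were called, from 15 genes, 12 of them members. C12orf40, CD248, DAZL, NR5A1, PRPH, RBBP8P1 and TKTL1 were called in 3 lines each, and the other 8 genes in 1 line each. Only a gene that reached 10 in 3 lines can be chosen when one of its lines is left out, so the design sets which members can be called often: these 7 are among the 8 such members, and a member that reached 10 in 2 lines was tested only where it stayed under 10. PPP1R1B, the eighth, was called in SKM-1. The same libraries take part in choosing for 1 line and testing for another, so these calls are not independent of each other, and the spread used in the test was shared by all 30 libraries. When the spread was taken from the 6 libraries of a line alone, 0 genes were called in MOLM-14 (0.613% of all genes tested), 0 in OCI-AML3 (0.189%), 2 in KG-1 (0.424%), 7 in MOLM-13 (11.2%) and 13 in SKM-1 (21.4%), among the last the same 10.

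Few genes beside the members were called. Within 50 kb of the members' start sites, 90 genes neither overlapped a member nor belonged to the 33, and 42 of them, next to 16 members, were tested with the mean difference over the 5 lines. limma called 5 higher, while 12% of all genes tested were called higher, so the share of the neighbours, 5 of 42, was near the background. C1QL4, a secreted C1q-related protein next to PRPH, rose by 1.53 ± 0.28 on the log2 scale (limma adjusted p = 0.000308), higher in 5 of 5 lines, from a mean of 5.14 to 32.4 normalised counts. OLIG1, the partner gene of OLIG2, rose by 0.86 ± 0.18 (limma adjusted p = 0.00113), from 60.0 to 155, higher in 3 lines. MSRB1 near RPL3L rose by 0.70 ± 0.09 and C17orf49 near BCL6B by 0.22 ± 0.08. limma called 0 neighbours lower, beside 7.52% of all genes, with 1 lower at an unadjusted p under 0.05. The number called higher was 9 without replicate 2 of every group (13.6% of all genes), 3 without replicate 1 (5.77%) and 2 without replicate 3 (6.02%).

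Other gene families gave few members or none. Members made up 28 of all 3719 silent protein-coding genes, 0.753%, so nothing is read from 0 members in a short list. Among olfactory and taste receptors, 317 of 410 protein-coding genes were silent under DMSO and 0 reached 10 in any line. Of 185 silent ion channel and transporter genes, 11 reached 10 in 1 line and 0 were members. Of 62 silent adhesion and synapse genes 1 did so, of 21 silent zinc finger genes 2, and of 8 silent haemoglobin genes 0. In the families that the rule left out, 5 genes met both thresholds: HORMAD1, MAGEA4, GAGE1, MAGEA2 and LINC01667.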

How the data were processed

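The values are normalised counts per gene that the authors deposited as 1 table, a signal scaled between libraries; per the submitters' processing notes the build was hg38 and the tools limma, DESeq2, featureCounts, Salmon 1.2.1 and STAR, with no roles given. The table holds 12 further columns that match no labelled sample, which were not used. Column letters t (decitabine) and u (DMSO) are given in the labels for MOLM-13 and SKM-1, and the same letters were read so for the other 3 lines. Gene coordinates came from GENCODE 29 (58064 genes matched) and promoter windows from RefSeq.

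The value of 1 read in each library was estimated from the smallest common step of its values; 49.6% to 71.3% of low values were whole multiples within 0.02, so counts were not recovered and count tests were not used. No 2 libraries were identical. limma 3.58.1 (R 4.3.3, statmod 1.5.0) was fitted to log2(value + 1) with 10 group means, 20 residual degrees of freedom and trended, robust variances on genes at 10 or more in at least 3 libraries, and was tested on simulated data. Summaries used Python 3.11.15, pandas 2.3.3 and numpy 2.4.6.

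The members and lists were chosen with earlier results of these data known. Every member is described; genes outside them are named by fixed rules: the 3 largest differences among those called in each left-out line, the genes at the edges of the thresholds, and members of the lists, while other called genes were named after their values were seen. Other thresholds, pseudocounts, filters, scalings, weights, blocks and left-out libraries were tried. Some single genes are not reported here.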

Additional observations from a re-analysis of the deposited data

How the results depend on the processing

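The number of members followed the thresholds, as 33 became 20 with a DMSO mean under 2, 64 with one under 5, 129 with a decitabine mean of at least 5, 10 with at least 20, 8 when 3 or more lines were required and 6 when every library had to be on its side. Leaving out 1 library gave 30 to 36. Without the 6 shallow libraries, 20 of the 33 were kept, and TKTL1, IL5RA, PRPH and DDX53 were among those lost.

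In lines left out of the choice, the fit on the 6 libraries of the line alone gave 2 genes called higher in KG-1, 7 in MOLM-13, 0 in MOLM-14 and 0 in OCI-AML3, where the share over all genes was 0.424%, 11.2%, 0.613% and 0.189%. In MOLM-13, where 1 gene was called beside 1.45% of all genes, pseudocount 5 gave 2 (1.81% of all), a filter of at least 20 gave 2 (1.87%), library weights gave 10 (13.8%) and leaving out the shallow libraries, chosen after seeing the data, gave 5 (6.8%), with TKTL1 not among the genes then chosen. Leaving out 1 library of the line gave 5 to 7 in KG-1, 1 in MOLM-13, 3 to 6 in MOLM-14 (3 without DMSO replicate 3), 5 to 6 in OCI-AML3 and 8 to 9 in SKM-1. The up to 3 genes with the largest differences called in each line were followed in the fit, whether or not the rule still chose them. None reversed under the alternatives run, and their fit calls were lost only in the fit on 1 line alone. The choice itself changed without the shallow libraries. Then 6 of the 10 genes called in SKM-1 were still both chosen and called, 4 of 7 in KG-1, 5 of 6 in OCI-AML3, 3 of 5 in MOLM-14 and 0 of 1 in MOLM-13. The other called genes were followed only as counts, which fell under several settings: without 1 library 8 of the 10 SKM-1 genes were still called at the lowest, and without KG-1 DMSO replicate 2, 5 of 7.

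With the replicate number as a block the left-out counts were 7 in KG-1, 1 in MOLM-13, 4 in MOLM-14, 5 in OCI-AML3 and 10 in SKM-1, and 9 neighbours were called higher (13.3% of all genes) in place of 5. The numbers were not taken to pair the libraries in the main fit. Correlations of same-numbered libraries ran from -0.02 to 0.15. Each library correlated best with its own number for 3 of 3 numbers in OCI-AML3, KG-1 and MOLM-14, 2 in SKM-1 and 1 in MOLM-13. In OCI-AML3, KG-1 and MOLM-14 replicate 2 was shallow in both treatments, so the number goes with depth there. What else same-numbered libraries share was not tested.

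Neighbours called higher were 2 of 11 tested within 10 kb and 21 of 163 within 200 kb, beside 12% of all genes, and of the 42 within 50 kb 11 with library weights (16.6% of all), 11 without the shallow libraries (19.1%) and 2 to 9 without 1 replicate of every group. Neighbours called lower, 0 within 50 kb, were 8 within 200 kb (7.52% of all genes), 1 after quantile normalization (8.44%), 2 with library weights (9.87%) and 2 without the shallow libraries (10.9%). Depth limits the low values: in the shallow libraries 1 read is worth 4.30 to 10.3 normalised counts, so single values near 10 there rest on very few reads.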

Other observations

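Of the equally silent genes, 193 reached 10 in 1 line, 92 of them in SKM-1, 42 in OCI-AML3, 29 in MOLM-14, 26 in KG-1 and 4 in MOLM-13. The following were chosen after their values were seen, among the 3 highest of their line. GPX3, the plasma glutathione peroxidase, was at 146, 117 and 141 normalised counts in the SKM-1 decitabine libraries, with a DMSO mean of 2.29 and no other decitabine mean above 1.09. RBM46, an RNA-binding protein of germ cells, was at 139.7, 124 and 128 in SKM-1, with a DMSO mean of 0.448. HECW2-AS1, an antisense RNA, was at 56.6, 28.0 and 46.6 in KG-1.

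Other high means stood in a single library. FABP5P7, a processed pseudogene, was at 372 in replicate 1 of OCI-AML3 decitabine and at 0 in replicates 2 and 3, and the histone gene H2AC18 was at 398 in replicate 3 of SKM-1 decitabine and at 0 in the other 2. SRP9P1, a pseudogene, was at 116 in replicate 2 of KG-1 decitabine, a shallow library, and at 0 in the others. CMKLR1, the chemerin receptor, was at 14.7, 79.2 and 6.82 in MOLM-14.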
